A study of Saccharomyces cerevisiae S288C with 24 samples.

Results

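The genes described here are the GATA-family regulators of nitrogen use in the yeast *Saccharomyces cerevisiae* together with the permeases they are known to control. They are the activators *GLN3* (YER040W) and *GAT1* (YFL021W), the repressors *DAL80* (YKR034W) and *GZF3* (YJL110C) and the Gln3 inhibitor *URE2* (YNL229C). With them come the ammonium permeases *MEP1* (YGR121C), *MEP2* (YNL142W) and *MEP3* (YPR138C), the general amino acid permease *GAP1* (YKR039W) and the protein kinase *NPR1* (YNL183C). They were chosen by name from the deposited tables, with earlier results of these data known. Each of the 10 genes has 1 locus of its own there, among 6929 loci. All 10 passed the filter on low values (a mean FPKM of at least 1, where FPKM is the deposited level per kilobase of transcript, scaled for library size) and were tested.

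Yeast prefers rich nitrogen sources such as glutamine and ammonium, and holds back the genes for poorer sources while a rich one is present, which is called nitrogen catabolite repression (NCR). In the usual model the kinase complex TORC1 and the protein Ure2 keep Gln3 in the cytoplasm when nitrogen is plentiful. When nitrogen is poor or TORC1 is inhibited, Gln3 and Gat1 enter the nucleus and bind GATA sequences in the promoters of permease and catabolic genes. Dal80 and Gzf3 bind the same sequences and oppose them, and several of these regulators carry GATA sequences in their own promoters. Mep1, Mep2 and Mep3 import ammonium, Mep2 with the highest affinity. Gap1 imports nearly all amino acids, and the kinase Npr1 keeps Gap1 active at the plasma membrane and is needed for the activity of the Mep permeases.

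RNA came from the wild type BY4741 (WT) and from Sc12, the same background with *TRP5* (tryptophan synthase, the last step of tryptophan synthesis) deleted, both grown in the rich medium YPD for 24 h. Each strain was grown without additions, with tryptophan (Trp) at 200 µg/ml, with isobutanol (IB), a fuel alcohol toxic to yeast, at 1.2%, and with both. This gave 8 groups of 3 libraries each, named by strain and additions, from WT and Sc12 without any to WT + IB + Trp and Sc12 + IB + Trp with both. Sc12 is a single deletion strain, and the treatments were made in 3 replicates. Neither labels nor methods say whether each replicate was a culture of its own, and the p-values cover the spread among these libraries, part of which may be technical. The comparisons ask how these genes differed with isobutanol in each strain and whether added tryptophan changed that. The authors report a more severe growth defect under isobutanol in Sc12 than in WT, which tryptophan relieved. An effect of isobutanol on these genes and an effect of growth state therefore cannot be told apart.

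The libraries held 5218712 to 14580261 fragments in the loci used. The check of the deleted gene matched the labels, since *TRP5* had 2921 to 8481 fragments in the 12 WT libraries and 0 to 11 in the 12 Sc12 libraries. The labels mark a pair of libraries (Sc12 + Trp replicate 1, Sc12 replicate 3) as make-up ones, and leaving both out changed no call of the 10 genes. Levels are given as CPM, the fragments of a locus per 1000000 fragments of its library after TMM scaling (trimmed mean of M values). The 3 Sc12 + IB libraries stood apart in this scaling, with TMM factors of 0.588 to 0.687 against 0.97 to 1.144 in the other 21. Over all loci the median log2 value of Sc12 + IB against Sc12 was -0.84 with plain library totals and -0.02 with TMM. Library totals called 495 loci higher and 2686 lower in that comparison, against 1094 and 670 with TMM, so values that rest on Sc12 + IB are given with both scalings where the call depends on it.

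The promoters are shown first, since the GATA sequence in them is what Gln3, Gat1, Dal80 and Gzf3 are known to bind. The motif GATAAG was searched on both strands (it reads CTTATC when it lies on the opposite strand) in the 300 bases from 500 to 201 before each start codon. This window was chosen after the positions of the motif had been seen. *MEP2* had 7 copies, *MEP3* 5, *GAP1* 4, *GAT1* 4 and *DAL80* 3, while *MEP1* had 2, *GLN3* and *NPR1* had 1, and *GZF3* and *URE2* had 0. Of 6000 protein-coding genes, 13.9% had at least 1 copy in the same window, 1.32% at least 2, 0.35% at least 3 and 0.133%, or 8 genes, at least 4. Only 1 gene of the 6000 had 7, and that gene was *MEP2*. Over all 500 bases before the start codon *GZF3* had 3 copies, all within 174 bases of it, and 0.55% of genes had 3 or more. *URE2* had 0 there as well. The 5 windows with the most copies follow, from the reference genome R64 (the build sacCer3 of the files) as given by RefSeq, 5′ to 3′ on the strand of the gene. Capitals mark GATAAG or CTTATC, and adjacent copies can share a base, as in the last run of *GAT1*.
MEP2, chrXIV:356953-357252, plus strand: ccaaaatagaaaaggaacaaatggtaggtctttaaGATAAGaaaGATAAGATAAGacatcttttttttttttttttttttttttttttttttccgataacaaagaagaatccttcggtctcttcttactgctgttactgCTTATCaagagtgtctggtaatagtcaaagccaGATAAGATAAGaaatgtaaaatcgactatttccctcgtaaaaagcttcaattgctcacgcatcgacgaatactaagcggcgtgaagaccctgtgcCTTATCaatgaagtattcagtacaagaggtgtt
MEP3, chrXVI:812654-812953, minus strand: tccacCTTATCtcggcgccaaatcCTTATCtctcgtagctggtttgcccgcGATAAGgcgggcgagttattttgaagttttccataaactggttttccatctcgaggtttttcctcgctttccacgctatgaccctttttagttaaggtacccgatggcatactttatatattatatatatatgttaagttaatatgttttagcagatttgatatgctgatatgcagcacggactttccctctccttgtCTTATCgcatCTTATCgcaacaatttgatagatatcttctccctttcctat
GAP1, chrXI:514563-514862, plus strand: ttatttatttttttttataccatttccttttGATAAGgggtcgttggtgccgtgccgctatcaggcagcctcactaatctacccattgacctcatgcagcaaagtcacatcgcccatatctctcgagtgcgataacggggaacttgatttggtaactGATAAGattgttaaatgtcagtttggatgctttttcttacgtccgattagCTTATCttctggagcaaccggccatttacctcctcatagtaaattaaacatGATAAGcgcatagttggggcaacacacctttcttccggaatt
GAT1, chrVI:95466-95765, plus strand: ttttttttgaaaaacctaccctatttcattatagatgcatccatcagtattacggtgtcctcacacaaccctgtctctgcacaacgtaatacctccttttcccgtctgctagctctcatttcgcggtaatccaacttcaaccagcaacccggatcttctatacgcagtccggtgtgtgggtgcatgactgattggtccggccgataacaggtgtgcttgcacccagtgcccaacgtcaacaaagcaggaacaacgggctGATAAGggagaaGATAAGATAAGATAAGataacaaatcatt
DAL80, chrXI:506398-506697, plus strand: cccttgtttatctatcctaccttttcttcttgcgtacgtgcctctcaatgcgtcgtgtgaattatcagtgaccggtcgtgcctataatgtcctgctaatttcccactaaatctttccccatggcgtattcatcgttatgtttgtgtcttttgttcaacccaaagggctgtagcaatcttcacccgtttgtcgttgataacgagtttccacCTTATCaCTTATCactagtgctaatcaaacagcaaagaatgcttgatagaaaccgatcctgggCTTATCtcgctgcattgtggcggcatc

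In these windows *GAT1* carried its 4 copies within 241 to 219 bases of the start codon, all on its own strand and 3 of them overlapping. *MEP2* had a group of 3 copies between 465 and 451 bases, a pair at 328 and 323 bases and 2 single copies on the opposite strand. The copies of *MEP3* lay at both ends of the window, and those of *GAP1* were spread over it. All 3 copies of *DAL80* were on the opposite strand. The *MEP2* window overlapped the annotated gene *YNL143C* and the *DAL80* window overlapped *YKR032W*, whereas those of *MEP3*, *GAP1* and *GAT1* overlapped no annotated gene. A match to 6 letters is a description of the sequence and not evidence of binding in these cells.

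**Figure D1:**
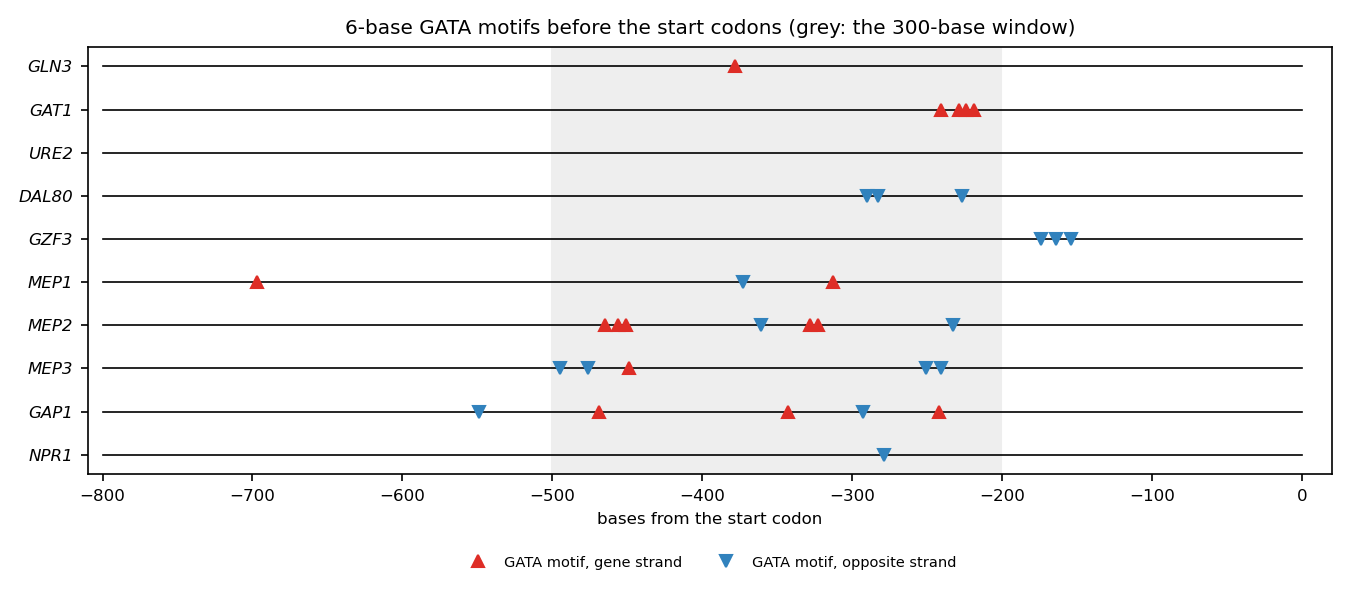
Positions of the 6-base GATA motif in the 800 bases before the start codon of each of the 10 genes, with red triangles for the gene's strand and blue triangles for the opposite strand. *MEP2* holds 7 motifs and *MEP3* 5 in the grey 300-base window, and *URE2* holds 0.

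In Sc12, isobutanol raised 3 of the 4 permease genes far more than any of their regulators. *MEP2* rose 108-fold, *GAP1* 21.6-fold and *MEP3* 13.5-fold, *GAT1* rose 3.66-fold, *MEP1* 3.22-fold and *NPR1* 2.22-fold, and *DAL80* fell 2.29-fold. Thus 6 of the 10 genes were called higher and 1 lower between Sc12 + IB and Sc12, where a call needs an absolute log2 fold change above 1 and an adjusted p below 0.05 in the quasi-likelihood test of edgeR with Benjamini-Hochberg adjustment over 6346 loci. Among all loci 27.8% were called, 17.2% higher and 10.6% lower. The remaining 3 genes, *GLN3*, *URE2* and *GZF3*, did not reach the fold threshold. Each value is an average over a culture, so a change in the share of cells that express a gene and a change of RNA per cell cannot be told apart.

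*MEP2* (chromosome XIV, 357453 to 358952) encodes the ammonium permease of highest affinity, which also acts as an ammonium sensor in filamentous growth. It had 86.5, 67.1 and 90.1 CPM in the 3 Sc12 libraries and 7137, 8664 and 10509 CPM in Sc12 + IB. Every Sc12 + IB library was far above every other library of the series, of which the highest was a WT + IB + Trp library with 355.4 CPM. The log2 fold change was 6.76 (standard error 0.23, adjusted p = 1.03e-17). Behind it stood 533 to 981 fragments per library in Sc12 and 55949 to 69702 in Sc12 + IB. With library totals it was 5.92, still a call.

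*GAP1* (chromosome XI, 515063 to 516871) had 199.3, 225.6 and 186.8 CPM in Sc12 and 3704, 4178 and 5360 CPM in Sc12 + IB. The log2 fold change was 4.43 (standard error 0.17, adjusted p = 9.10e-17), and 3.60 with library totals. No library of another group exceeded 568.4 CPM. *GAP1* is the textbook example of an NCR gene, being both a target of the GATA activators and regulated as a protein through Npr1.

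*MEP3* (chromosome XVI, 810984 to 812453), the low-affinity, high-capacity permease, had 91.5, 96.9 and 87.6 CPM in Sc12 and 990.7, 1246 and 1503 CPM in Sc12 + IB, or 3.76 on the log2 scale (standard error 0.13, adjusted p = 8.76e-18). *MEP1* (chromosome VII, 731449 to 732927) had 302.9, 303.7 and 293.1 CPM in Sc12 and 811.2, 929.6 and 1153 CPM in Sc12 + IB, or 1.68 on the log2 scale (standard error 0.11, adjusted p = 1.29e-12). All 3 *MEP* genes therefore separated the 2 groups without overlap, as did the other 7 genes. The share of all loci that did so was not counted. The call of *MEP1* was lost with library totals (0.85), whereas that of *MEP3* was kept (2.92). None of the 50-base windows of the *MEP* genes, nor of the other 7 genes, occurred a second time in the genome, so reads of the length used here do not mix these paralogs where they match exactly.

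Levels of different genes can be compared per kilobase of coding sequence. On this scale *MEP1* was the most abundant of the *MEP* genes in Sc12, at 202.8 ± 3.98 CPM per kb (SD, n = 3), with *MEP3* at 62.6 ± 3.2 and *MEP2* at 54.2 ± 8.25. In Sc12 + IB *MEP2* led with 5847 ± 1126 CPM per kb, followed by *MEP3* with 848 ± 174.3 and *MEP1* with 652.2 ± 117.3. *MEP2* thus went from 16.9% ± 2.48 of the summed *MEP* level in Sc12 to 79.6% ± 0.0571 in Sc12 + IB, and *MEP1* from 63.5% ± 1.35 to 8.9% ± 0.255. Such a share is a ratio within a library and does not depend on the scaling between libraries.

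The 10 genes together took 1%, 1.11% and 1.23% of the tested fragments in the Sc12 + IB libraries, against 0.137% to 0.237% in the other 21 libraries. These shares are levels by library totals, without TMM, so unlike a ratio between genes they depend on the choice of scaling. In Sc12 + IB most of the share was *MEP2* and *GAP1*.

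**Figure D2:**
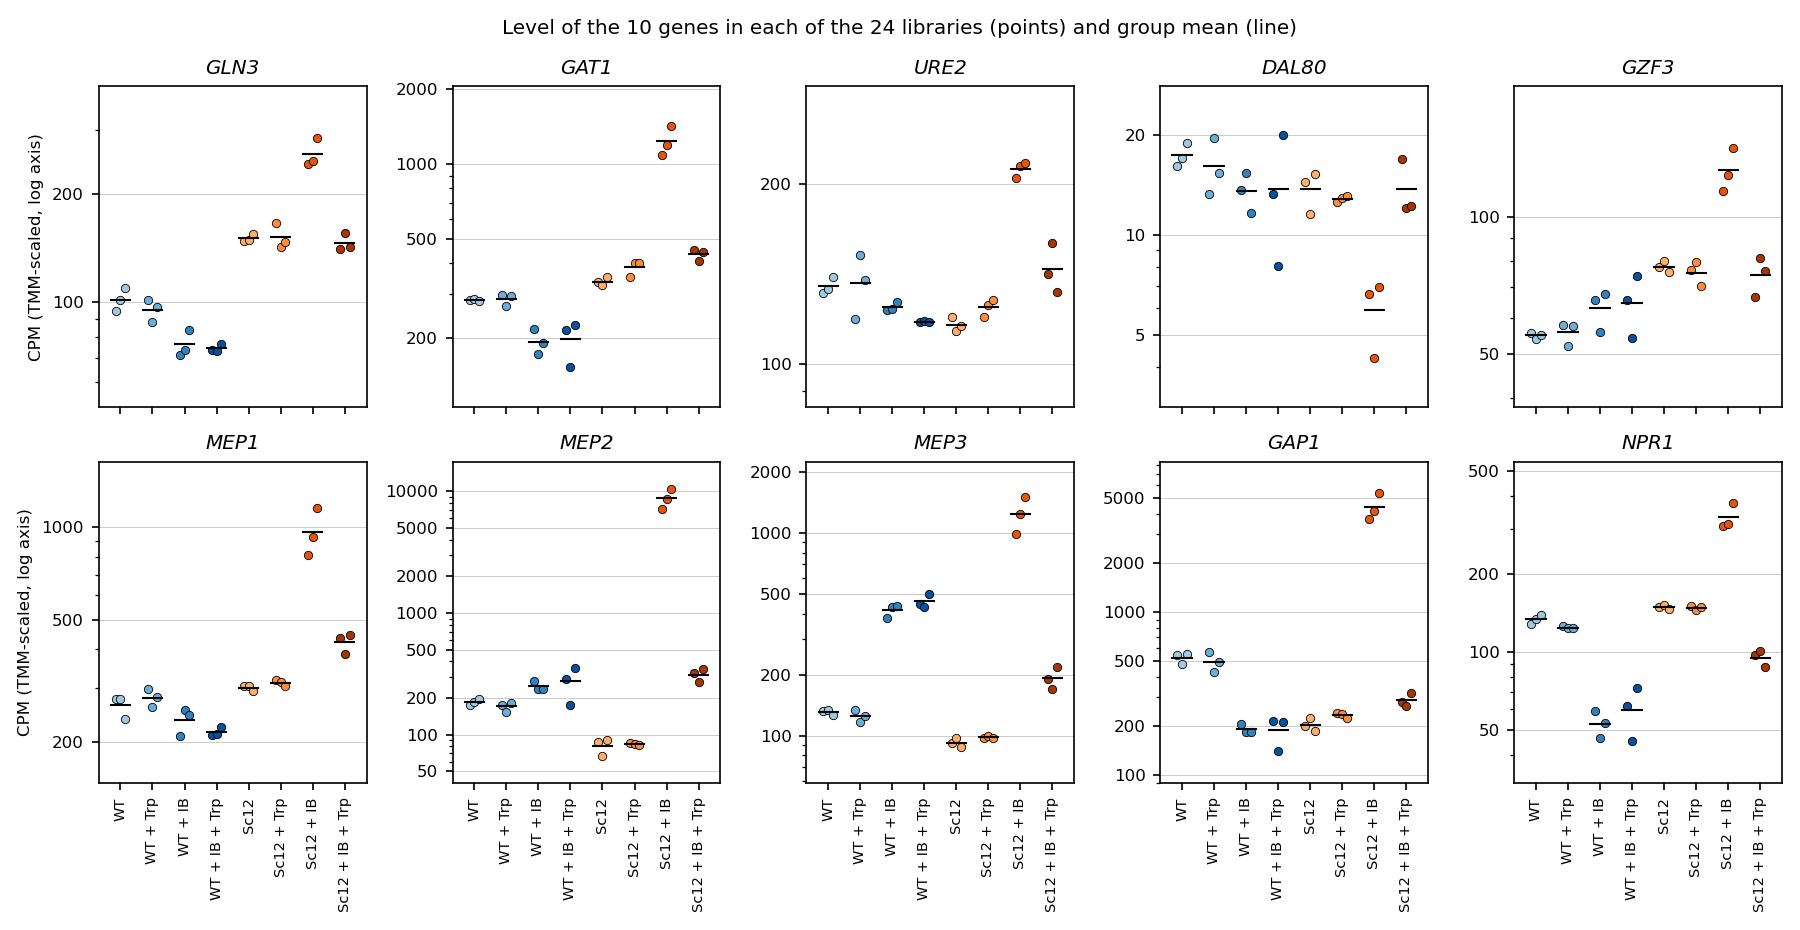
Level of each of the 10 genes as TMM-scaled CPM on a log axis, with 1 point per library, coloured by group, and a line at the group mean (n = 3). On this scale the Sc12 + IB libraries are the highest for every gene except *DAL80*, where they are the lowest, at 4.24 to 6.94 CPM, and by library totals Sc12 + IB has the highest mean for 6 genes. The same count over all loci was not made.

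Of the transcription factor genes, *GAT1* was the one called higher. It had 335.5, 325.8 and 350.6 CPM in Sc12 and 1087, 1195 and 1418 CPM in Sc12 + IB, or 1.87 on the log2 scale (standard error 0.12, adjusted p = 2.12e-12). The call was kept with library totals, at 1.04, but not with limma on log2(FPKM + 1), where the value was 1.50 with an adjusted p of 0.0962. The *GAT1* locus (chromosome VI, 95761 to 97498) overlaps the antisense gene *YFL021C-A*, and the library kit is not stated to mark strand, so reads from the overlap cannot be told apart. *YFL021C-A* was assigned 65 to 422 fragments per library and *GAT1* 1486 to 9408.

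*GLN3* (chromosome V, 229795 to 231987), the other activator, had 147.5, 148.7 and 154.5 CPM in Sc12 and 240.8, 246.7 and 285.1 CPM in Sc12 + IB. The groups did not overlap, but the change, 0.78 on the log2 scale (standard error 0.08, adjusted p = 1.66e-08), stayed under the fold threshold. It became -0.05 with library totals, so no direction can be given for *GLN3* apart from the choice of scaling. *URE2*, whose product holds Gln3 in the cytoplasm, behaved alike on both scales, at 0.87 with TMM and 0.04 with library totals. The ratio of *GLN3* to *URE2* per kb was 0.627 ± 0.0258 in Sc12 and 0.588 ± 0.0425 in Sc12 + IB, with overlapping ranges. The ratio of *GAT1* to *GLN3* per kb was 3.13 to 3.25 in Sc12 and 6.46 to 7.12 in Sc12 + IB, so the messages of the 2 activators did not change by the same factor.

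Of the repressor genes only *DAL80* was called. *DAL80* (chromosome XI, 506879 to 507707) had 14.4, 11.5 and 15.2 CPM in Sc12 and 6.63, 4.24 and 6.94 CPM in Sc12 + IB. Its log2 fold change was -1.20 (standard error 0.27, adjusted p = 3.11e-04), and -2.02 with library totals. It rested on 90 to 163 fragments per library in Sc12 and 30 to 52 in Sc12 + IB, the lowest counts of the 10 genes. The deposited locus of the antisense gene *YKR033C* covers all 829 bases of the *DAL80* locus, and how far the genes themselves overlap was not measured. *YKR033C* was assigned 0 to 2 fragments per library, and without strand the reads from the overlap cannot be told apart. *DAL80* was the only gene of the 10 called lower in this comparison. It is itself known as a target of the GATA activators, and its window held 3 copies of the motif. *GZF3*, the other repressor gene, had a log2 fold change of 0.70 (adjusted p = 2.17e-06), under the fold threshold, and -0.13 with library totals. The ratio of *GAT1* to *DAL80* per kb was 12.2 to 14.9 in the Sc12 libraries and 86.6, 149 and 108 in Sc12 + IB.

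**Figure D3:**
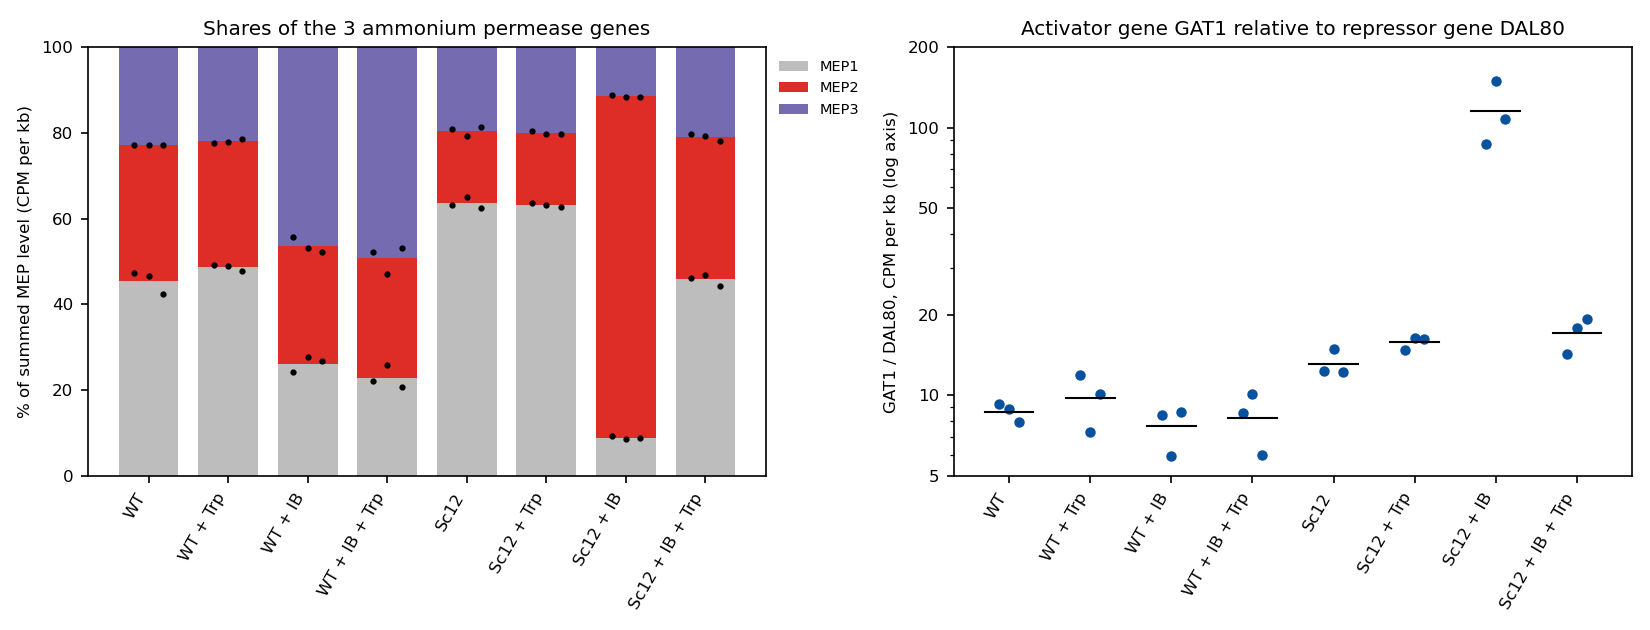
Left, the shares of *MEP1*, *MEP2* and *MEP3* in their summed level (CPM per kb) as stacked group means, with black dots at the borders of the 3 libraries. Right, the ratio of *GAT1* to *DAL80* (CPM per kb, log axis) in each library with the group mean as a line. *MEP2* makes up 79.6% in Sc12 + IB, and the ratio averages 115 there against 7.67 to 17.1 in the other groups.

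*NPR1* (chromosome XIV, 293137 to 295509) had 149.9, 151.4 and 147.2 CPM in Sc12 and 308.2, 312.7 and 376.9 CPM in Sc12 + IB, or 1.15 on the log2 scale (standard error 0.11, adjusted p = 3.74e-09). With library totals it was 0.32 and no longer a call. The permease gene moved much more than the gene of its kinase. The ratio of *GAP1* to *NPR1* per kb was 1.66 to 1.96 in Sc12 and 15.8 to 18.7 in Sc12 + IB.

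In WT the same isobutanol treatment gave a different picture. *MEP3* was the only gene of the 10 called higher, from 132.4, 133.7 and 126.9 CPM in WT to 380.9, 430.0 and 436.6 CPM in WT + IB, which is 3.17-fold (log2 fold change 1.67, standard error 0.12, adjusted p = 1.76e-11). *GAP1* fell 2.73-fold, from 542.4, 479.4 and 549.6 CPM to 206.8, 184.6 and 183.7 CPM (log2 fold change -1.45, standard error 0.15, adjusted p = 1.09e-08). *NPR1* fell 2.53-fold, from 127.9, 134.0 and 139.4 CPM to 59.0, 46.3 and 53.3 CPM (log2 fold change -1.34, standard error 0.12, adjusted p = 7.54e-10). Thus 1 of the 10 genes was called higher and 2 lower, where 11.8% of all loci were called higher and 8.89% lower (20.7% in either direction).

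*MEP2* had 175.9, 183.7 and 195.7 CPM in WT and 276.0, 237.9 and 236.9 CPM in WT + IB, which is 0.44 on the log2 scale (standard error 0.18, adjusted p = 0.0349) and did not reach the fold threshold. *GAT1* and *GLN3* had values of -0.55 and -0.42, also under it, and limma on the FPKM gave the opposite sign for both. *DAL80*, *GZF3*, *URE2* and *MEP1* had adjusted p from 0.0935 to 0.192. Within the *MEP* family *MEP3* went from 22.8% ± 0.0856 of the summed level per kb in WT to 46.4% ± 1.81 in WT + IB, while *MEP2* had 31.7% ± 2.58 and 27.5% ± 3.49, with overlapping ranges. The same 3 genes were called when both media held tryptophan (WT + IB + Trp against WT + Trp, background 19.7%, with 11.2% higher and 8.56% lower), with *MEP3* at 1.88, *GAP1* at -1.40 and *NPR1* at -1.06. The call of *NPR1* there was lost without WT + IB + Trp replicate 2 (-0.90) and with limma on log2(FPKM + 1) (-0.97).

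**Figure D4:**
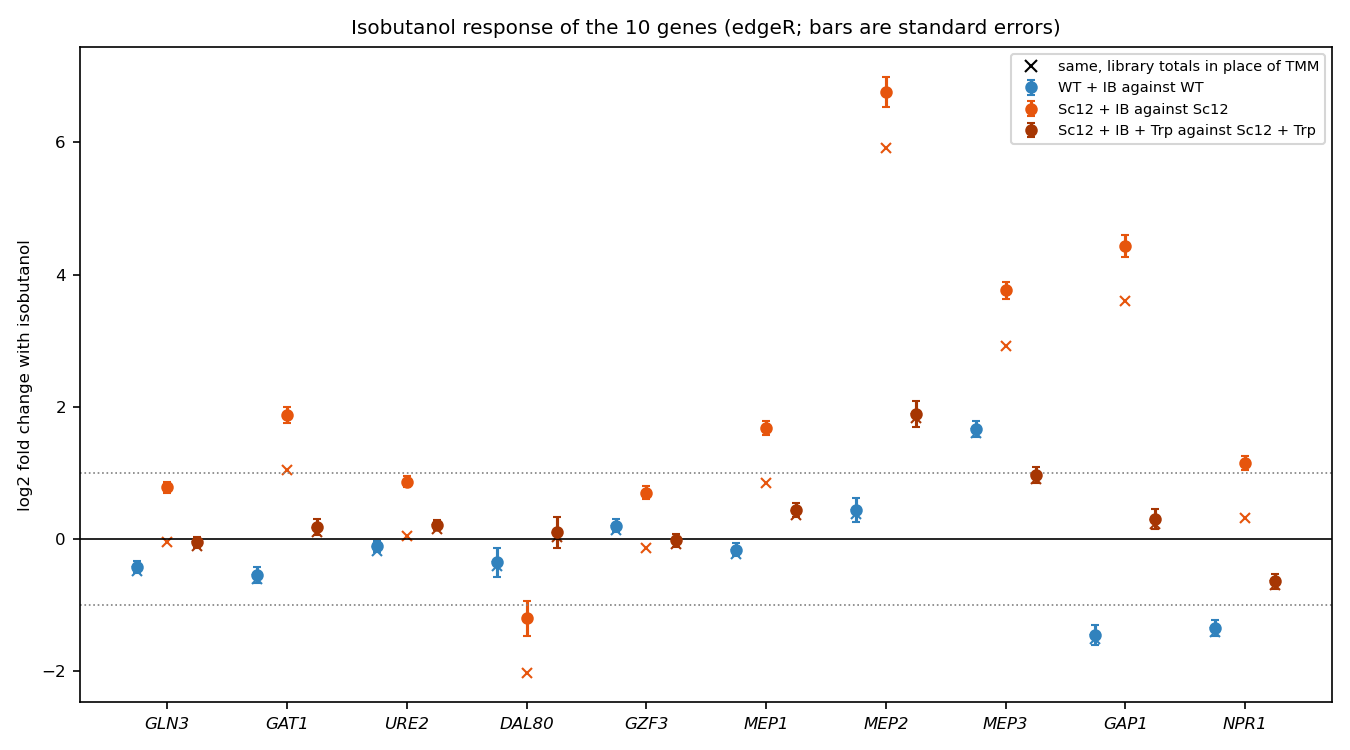
Log2 fold change with isobutanol for the 10 genes in WT, in Sc12 and in Sc12 with tryptophan in both media, from edgeR with TMM (circles, bars are standard errors) and with library totals (crosses). The dotted lines mark the fold threshold of 1, and for *MEP2* the 3 circles stand at 0.44, 6.76 and 1.89.

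The strains differed in this response by a test of the difference itself. The strain by isobutanol interaction asks whether the log2 fold change in Sc12 differs from that in WT, in either direction. It was called for 7 of the 10 genes, all higher. With TMM 25.3% of all loci were called, 16.0% higher and 9.27% lower. The interaction was 6.32 for *MEP2* (standard error 0.27, adjusted p = 3.31e-15) and 5.88 for *GAP1* (standard error 0.22, adjusted p = 3.45e-16). *NPR1* had 2.49, *GAT1* 2.42, *MEP3* 2.09, *MEP1* 1.84 and *GLN3* 1.19. *GAP1* and *NPR1* rose in Sc12 and fell in WT, but the rise of *NPR1* was no call with library totals (0.32). *MEP3* was called higher with isobutanol in both strains, by more in Sc12. The value for *GLN3* was 0.43 with library totals and no call, and limma on log2(FPKM + 1) called neither *GLN3* (0.31) nor *GAT1* (1.02). *URE2*, at 0.98, was just under the threshold and passed it, at 1.00, without WT replicate 1, WT + IB replicate 3 or Sc12 replicate 1.

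With tryptophan in both media, *MEP2* was the only gene of the 10 called between Sc12 + IB + Trp and Sc12 + Trp (background 17.9%, with 9.93% higher and 8.02% lower). It had 84.9, 84.0 and 82.7 CPM in Sc12 + Trp and 319.4, 269.3 and 344.9 CPM in Sc12 + IB + Trp, a rise of 3.71-fold (log2 fold change 1.89, standard error 0.19, adjusted p = 6.21e-09). *MEP3* came close to the threshold, with 0.97 (standard error 0.12, adjusted p = 1.09e-07), and passed it, at 1.06, when Sc12 + IB + Trp replicate 2 was left out, which makes 2 calls. *NPR1* had -0.64 (adjusted p = 3.13e-05) and *MEP1* 0.44 (adjusted p = 7.44e-04), both under the fold threshold. *GAP1* had 0.30, *GAT1* 0.18 and *DAL80* 0.10, each with an adjusted p above 0.05.

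Adding tryptophan to isobutanol cultures of Sc12 lowered the genes that isobutanol had raised. Between Sc12 + IB + Trp and Sc12 + IB, 6 of the 10 genes were called lower and 1 higher, against 14.6% and 9.39% of all loci (24.0% in either direction). *MEP2* fell by 4.82 on the log2 scale (standard error 0.21, adjusted p = 1.04e-15), from 7137 to 10509 CPM down to 269.3 to 344.9 CPM. The log2 fold change was -3.94 for *GAP1*, -2.69 for *MEP3*, -1.81 for *NPR1*, -1.50 for *GAT1* and -1.19 for *MEP1*, all called lower. *DAL80* rose by 1.21 on the log2 scale (standard error 0.26, adjusted p = 2.62e-04), to 16.9, 12.0 and 12.2 CPM. This comparison shares the Sc12 + IB libraries with the response to isobutanol in Sc12, so opposite signs in the 2 are not independent of each other. With library totals (37.8% of all loci called higher and 6.93% lower) *GAT1* (-0.75) and *MEP1* (-0.43) were no longer called, and *GAT1* was not called by limma on log2(FPKM + 1) either (-1.52, adjusted p = 0.105). The authors report *GLN3* as raised by isobutanol in Sc12 and brought back by tryptophan. Here *GLN3* had -0.82 with TMM, under the fold threshold, and -0.06 with library totals.

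The levels reached with both additions differed from gene to gene. *GAT1* had 453.4, 407.2 and 444.6 CPM in Sc12 + IB + Trp, above the 3 Sc12 libraries without overlap. *NPR1* had 97.0, 100.8 and 87.3 CPM, below the Sc12 libraries. *GAP1* had 279.4, 264.5 and 319.9 CPM, above the Sc12 libraries and below those of WT. *MEP2* made up 33.2% ± 0.826 of the *MEP* sum per kb, a range of 32.3% to 33.9% that lies inside that of WT (29.7% to 34.6%) and above that of Sc12 (14.2% to 18.9%).

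The same addition to WT cultures with isobutanol called none of the 10 genes. In edgeR 0 of 10 were called between WT + IB + Trp and WT + IB, 0 had an unadjusted p under 0.05, and DESeq2 and limma also called 0. The log2 fold changes lay between -0.13 and 0.18. Of all 6346 loci 0.00% were called and 970 had an unadjusted p under 0.05. The interaction of strain and tryptophan under isobutanol was called for 7 of the 10 genes (background 25.5%, with 15.5% lower and 9.94% higher), with *MEP2* at -4.95, *GAP1* at -3.91, *MEP3* at -2.84, *NPR1* at -1.98, *GAT1* at -1.53 and *MEP1* at -1.06, and with *DAL80* at 1.19. The calls of *DAL80* and *MEP1* in this interaction depended on single libraries. *DAL80* had 0.93 without WT + IB + Trp replicate 2 and 1.00 without Sc12 + IB replicate 2, and *MEP1* had -0.97 without WT + IB replicate 1 and -0.91 without Sc12 + IB replicate 3. With library totals *GAT1* (-0.78) and *MEP1* (-0.31) were not called, nor were *GAT1* (-1.51) and *DAL80* (1.09) with limma on log2(FPKM + 1).

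Tryptophan alone called 0 of the 10 genes in either strain by edgeR, DESeq2 or limma, and 0 had an unadjusted p under 0.05. The log2 fold changes lay between -0.12 and 0.08 in WT and between -0.08 and 0.20 in Sc12. Of all loci 0.0158% were called in WT, which is 1 locus, with 449 at an unadjusted p under 0.05, and 0.378% in Sc12 (0.0315% higher and 0.347% lower), with 662.

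Before any addition the 2 strains already differed in a pair of these genes. *GAP1* was 2.57-fold lower in Sc12 than in WT (log2 fold change -1.36, standard error 0.15, adjusted p = 3.32e-07), and *MEP2* was 2.28-fold lower (log2 fold change -1.19, standard error 0.18, adjusted p = 2.41e-05). The libraries of both genes, as of the rest of the set, did not overlap between strains, and the share of all loci without overlap was not counted. The background was 3.31% of loci called, 1.78% higher and 1.53% lower. *GLN3* and *GZF3* had higher values in Sc12, at 0.56 and 0.50, and *MEP3* a lower one, at -0.51, all under the fold threshold. With tryptophan in both media (background 3.21%, with 1.56% higher and 1.65% lower) *GAP1* had -1.08 and *MEP2* -1.03. Both were near the threshold. *GAP1* lost its call without WT + Trp replicate 1 (-0.98), *MEP2* without WT + Trp replicate 3 (-0.97), and both with library totals.

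Under isobutanol (Sc12 + IB against WT + IB) the order of the strains was turned round for these 2 genes. *MEP2* was 35-fold and *GAP1* 23-fold higher in Sc12 than in WT, with log2 fold changes of 5.13 and 4.52, which were 4.47 and 3.86 with library totals. In all 8 of the 10 genes were called higher (16.1% of all loci) and 1 lower (11.1%), with 27.2% of loci called in either direction. With library totals 8.07% of all loci were called higher and 33.9% lower. *GAT1* had a log2 fold change of 2.67, *NPR1* 2.65, *MEP1* 2.03, *GLN3* 1.76, *MEP3* 1.58 and *GZF3* 1.01, and *DAL80* had -1.19. *URE2*, at 0.77, was not called. The call of *GZF3* was lost in the fit of only these groups (0.98), without WT + IB replicate 2 (0.94) or Sc12 + IB replicate 3 (0.90), and with library totals (0.35), and that of *MEP3* was lost with library totals (0.92). With isobutanol and tryptophan together (background 24.0%, with 11.8% higher and 12.2% lower) *GAT1* was higher in Sc12 (log2 fold change 1.14, standard error 0.12, adjusted p = 1.45e-08) and *MEP3* lower (-1.25, standard error 0.11, adjusted p = 1.41e-09), while *MEP2* had 0.19 with overlapping libraries. *GLN3* and *MEP1* were close to the threshold, both at 0.97. Both passed it with library totals (each 1.07), and *MEP1* also without Sc12 + IB + Trp replicate 2 (1.03). *GAT1* had 0.91 and no call with limma on log2(FPKM + 1).

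Ordered by mean TMM-scaled level over the 8 groups, Sc12 + IB came first for 9 of the 10 genes, without overlap with the next group, and last for *DAL80*. By library totals it came first for 6 genes, since *GLN3* and *GZF3* were then highest in Sc12 and *URE2* in Sc12 + IB + Trp, and again last for *DAL80*. How many of all loci had Sc12 + IB first without overlap was not counted, so this order is not particular to these genes. For *MEP2* the next 3 groups, Sc12 + IB + Trp (311.2 CPM), WT + IB + Trp (273.7) and WT + IB (250.2), overlapped in turn. WT and WT + Trp followed at 185.1 and 170.7 CPM, then Sc12 + Trp and Sc12 at 83.9 and 81.2. For *GAP1* WT (523.8 CPM) and WT + Trp (496.8) came next and overlapped, and the 2 WT groups with isobutanol came last. For *MEP3* the 2 WT groups with isobutanol were next, at 460.7 and 415.8 CPM, above Sc12 + IB + Trp with 193.3. For *DAL80* each of the upper 7 groups overlapped the next, from 17.4 down to 12.8 CPM.

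The loci whose pattern over the 8 group means was most like that of *MEP2*, *GAP1*, *GLN3* or *DAL80* were listed by Pearson's r of log2(CPM + 1). The 8 points come from the same 24 libraries and 1 of them, Sc12 + IB, lies far from the rest, so the values are a description with no test. Closest to *MEP2* were *SNG1* and *APE4* (both 0.994), *VPS36* (0.992), *YGL185C* (0.991) and *PAM1* (0.987). Closest to *GAP1* were *RIM9* (0.996), *SKG1* (0.993), *PYC2*, a pyruvate carboxylase gene (0.991), *DUR12*, the urea amidolyase gene also written *DUR1,2* (0.990), and *YDR222W* (0.988). *GLN3* was closest to *RIB1* of riboflavin synthesis and *MOT2* (both 0.990), *HHY1* (0.989), *RAD16* of excision repair (0.988) and *BDH2* (0.983), and *DAL80* was close to *COQ8* of coenzyme Q synthesis (0.984), *ECT1* (0.977), *MIN6* (0.970) and *RDL1* (0.968). Among the 10 genes themselves the highest values were 0.983 for *GAT1* with *MEP1* and 0.958 for *GAP1* with *URE2*. The lowest was -0.945 for *DAL80* with *GZF3*, the other repressor. All these r were taken from TMM-scaled levels only. By library totals *URE2* was highest in Sc12 + IB + Trp and *GZF3* in Sc12, so the values for these genes depend on the scaling.

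Other genes of the pathway were counted in 4 lists that do not hold the 10 genes and were also chosen with earlier results of these data known. Of 38 NCR-regulated genes of nitrogen source uptake and use, 17 (44.7%) rose and 2 (5.26%) fell between Sc12 + IB and Sc12, against 17.2% and 10.6% of all loci, with a median log2 fold change of 0.64 against -0.02 for all loci. The largest values were those of *AGP1*, a permease of many amino acids (5.76, from 333.0 ± 30.1 to 18111 ± 3406 CPM), *YHI9* (4.95), the urea permease *DUR3* (4.86) and the GABA permease *UGA4* (4.60). With library totals 11 of the 38 were called higher and 9 lower, where 7.8% and 42.3% of all loci were, and the median was -0.19 against -0.84. In WT 4 of the 38 were called higher (10.5%, against 11.8% of all loci) and 10 lower (26.3%, against 8.89%), with a median of -0.40. *UGA4* fell by 1.25 there, *YHI9* rose by 1.68, and *AGP1* and *DUR3* both had -0.41, under the fold threshold. Adding tryptophan to isobutanol in Sc12 called 15 lower (39.5%, against 14.6% of all loci) and 4 higher (10.5%, against 9.39%), with *UGA4* at -5.46 and *AGP1* at -5.41. Both were named for their rise between Sc12 + IB and Sc12. This comparison shares the Sc12 + IB libraries, so the opposite signs are not independent. With library totals adding tryptophan called 12 of the 38 lower and 7 higher, where 6.93% and 37.8% of all loci were. The median was 0.10 against 0.77 for all loci. Tryptophan called 0 of the 38 in WT with isobutanol, or alone in either strain.

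Of 25 tested genes of TORC1 and Gln3 signalling, *CRM1*, the exportin of nuclear export, rose (1.33) and *IML1*, part of the complex that restrains TORC1, fell (-1.39) between Sc12 + IB and Sc12, and *IML1* also fell in WT (-1.91). These are 4% higher and 4% lower, against 17.2% and 10.6% of all loci, and the median was -0.14. With library totals 0 were called higher and 11 lower, and 42.3% of all loci were lower on that scale. Of 20 genes for the delivery and ubiquitin-dependent removal of permeases, the arrestin gene *ROG3* (3.49) and the cargo receptor gene *ERV14* (1.22) rose and 0 fell, with a median of 0.08. The share of 10% higher stands against the same 17.2% of all loci, and library totals gave 1 higher and 7 lower, against 7.8% and 42.3% of all loci. Of 22 pathway-specific activators and other regulators, 5 rose (22.7%) and 4 fell (18.2%), against 17.2% and 10.6% of all loci, with a median of -0.19. *LEU3*, an activator of leucine synthesis, had 2.04, *UGA3*, the activator of GABA use, 2.02, the arginine regulator *ARG80* 1.39 and the amino acid sensor gene *SSY1* -1.39. With library totals 2 of the 22 were called higher and 11 lower, against 7.8% and 42.3% of all loci.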

How the data were processed

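RNA of 24 samples in 8 groups was sequenced as 50-base single-end reads. The authors used bcl2fastq 2.18, Trimmomatic 0.39, TopHat2 2.1.1 on sacCer3 and Cufflinks 2.2.1, and the gene annotation is not given in the sources used here. The deposited estimated counts are fragments per locus and library, unscaled, and 98.83% of the values are whole to within 0.001. FPKM, also deposited, were scaled by the authors for length and library size and do not always follow the fragments. For *GAT1* the 3 WT libraries have 4177, 4252 and 4131 fragments and FPKM of 152.0, 203.0 and 21.2. The deposited table of the authors' own tests (fold changes, p-values) was not used. Of 6929 loci, 24 with a failed estimate were left out and 6346 with a mean FPKM of at least 1 were tested.

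Rounded counts were tested with edgeR 4.0.16 (R 4.3.3), TMM and 8 group means over all 24 libraries, with 16 residual degrees of freedom. The 10 genes and the lists were chosen with earlier results of these data known. Named besides the 10 were the 5 closest loci of 4 members (1 of these is not reported here) and up to 4 genes per list with the largest called change between Sc12 + IB and Sc12. One listed gene, *TIP41*, has no locus of its own among those tested. The alternatives were library totals, RLE size factors, DESeq2 1.42.0, limma 3.58.1 on log2(FPKM + 1) and log2(FPKM + 0.1), no filter or a mean FPKM of at least 10, only the groups compared, no make-up libraries, a replicate block, and leaving out each replicate. The test was tried on simulated data for WT + IB against WT only. These data held no scaling shift like that of Sc12 + IB, so they say nothing on calls that rest on that group. Tables were handled in Python 3.11.15 with pandas 2.3.3 and numpy 2.4.6, and figures were drawn with matplotlib 3.10.9.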

Additional observations from a re-analysis of the deposited data

Results flagged for a closer look

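The response to isobutanol differed between the strains for 7 of the 10 genes, by an interaction term in edgeR with adjustment over all 6346 loci. Of all loci 25.3% were called in this interaction, 16.0% higher and 9.27% lower. With library totals 6.79% were called higher and 38.9% lower. The difference, Sc12 minus WT on the log2 scale, was 6.32 for *MEP2*, 5.88 for *GAP1*, 2.49 for *NPR1*, 2.42 for *GAT1*, 2.09 for *MEP3*, 1.84 for *MEP1* and 1.19 for *GLN3*. For *GAP1* and *NPR1* the 2 strains moved in opposite directions, but the rise of *NPR1* in Sc12 was no call with library totals (0.32). The call of *GLN3* was lost with library totals (0.43), and limma on log2(FPKM + 1) called neither *GLN3* (0.31) nor *GAT1* (1.02).

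The effect of tryptophan under isobutanol also differed between the strains, by the same kind of test, for 7 of the 10 genes. Here 25.5% of all loci were called, 9.94% higher and 15.5% lower. With library totals 36.6% were called higher and 7.15% lower. The difference was -4.95 for *MEP2*, -3.91 for *GAP1*, -2.84 for *MEP3*, -1.98 for *NPR1*, -1.53 for *GAT1*, -1.06 for *MEP1* and 1.19 for *DAL80*. The calls of *DAL80* and *MEP1* were each lost when certain single libraries were left out, those of *GAT1* (-0.78) and *MEP1* (-0.31) with library totals, and those of *GAT1* (-1.51) and *DAL80* (1.09) with limma on log2(FPKM + 1). Both interactions contain the Sc12 + IB and WT + IB libraries and are not independent of each other.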

How the results depend on the processing

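The counts of called genes among the 10 moved by no more than 1.5 times under RLE size factors, DESeq2, either filter, the fit of only the groups compared and the fit without make-up libraries, in all comparisons. Under the other alternatives, exceptions lay in 3 comparisons. Between the strains with tryptophan, 0 genes were called with library totals, against 2, and 1 to 2 with 1 library left out. Between the strains with isobutanol and tryptophan, 4 were called with library totals and 1 with limma on either FPKM scale, against 2. For isobutanol in Sc12 with tryptophan the count was 1 to 2 with 1 library left out.

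The sign turned only for values that were not calls. With library totals it turned for 6 of the 140 values of the 10 genes (to 2 decimals), namely *GLN3* (-0.05) and *GZF3* (-0.13) for isobutanol in Sc12, *URE2* (0.20) for tryptophan under isobutanol in Sc12, *GZF3* (-0.27) for the strain by isobutanol interaction, *URE2* (0.28) for the strain by tryptophan interaction and *DAL80* (0.08) between the strains with isobutanol and tryptophan. The other alternatives were followed for 66 values, those called and all those of 4 main comparisons. Among these the sign turned with limma on log2(FPKM + 1) and log2(FPKM + 0.1), for isobutanol in WT in *GLN3* (0.22 and 0.23), *GAT1* (0.48 and 0.50) and *DAL80* (0.03 and 0.03), and for the interaction in *GZF3* (-0.06 and -0.08), and in none when 1 library was left out. Where *GAT1* was called, limma kept its direction but lost the call in 5 comparisons, among them isobutanol in Sc12 (1.50, adjusted p = 0.0962 by limma on log2(FPKM + 1)). Library totals raised the *DAL80* interaction with isobutanol to a call (-1.61). The cause of these shifts was not tested.

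No pairing by replicate number held for every library of a comparison. The correlation of same-numbered libraries ran from -0.242 to 0.603, and in no comparison was every pair above 0.1 or did every library correlate best with its own number. The highest value was that of replicate 2 between WT + IB + Trp and WT + IB. Whether some libraries shared a batch was not tested. With the replicate block the counts of called genes stayed as they were, at 7 for isobutanol in Sc12 and 3 for isobutanol in WT, and no call changed.

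Depth limited *DAL80* most, with 30 to 52 fragments in the Sc12 + IB libraries.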
